A study of Sus scrofa with 2 samples.

Results

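SCD, FASN, ME1 and LPIN1 are 4 genes of fat synthesis, chosen by their symbols with their values in these libraries already known, and each was found on 1 of the 27987 entries of the deposited expression table. They were measured in longissimus dorsi, a long back muscle, of crossbred barrows (castrated male pigs) from Duroc boars and Yorkshire-Landrace sows. One library, H30, came from the arm held at a constant 30 °C for 21 days and the other, CON, from the arm held at a constant 22 °C over the same time. The study used 16 pigs weighing 79.0 ± 1.5 kg from 8 litters, 8 in each arm, and the sources used here do not say how many of them gave RNA to each library. The labels give no age, diet or feed intake, so warmth cannot be told apart from anything else that differed between the arms.

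Cells make fat from citrate that leaves the mitochondria. ATP citrate lyase turns it into acetyl-CoA, acetyl-CoA carboxylase makes malonyl-CoA from that, and fatty acid synthase builds palmitate with NADPH that malic enzyme and the pentose phosphate pathway supply. Stearoyl-CoA desaturase then puts a double bond into saturated chains, and lipins remove the phosphate from phosphatidate to give the diacylglycerol from which triglyceride is made. In pigs most of this synthesis takes place in adipose tissue, and muscle holds both lipid droplets inside fibres and adipocytes between them.

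The H30 library held an estimated 22863584 reads and the CON library 23608242. Values are RPKM, reads scaled to gene length and library total. Comparisons of level between genes rest on the gene lengths that were used, which are not given in the sources used here. Both libraries carried muscle fibre RNA at very high levels, led by skeletal muscle actin ACTA1 at 65219 RPKM in H30 and 68749 RPKM in CON. The effect throughout is log2((H30 RPKM + 1)/(CON RPKM + 1)), over the 13191 entries with a mean RPKM of at least 1, whose median was 0.05. With 1 library per group there was no replicate and no test. The 95% intervals below were computed from recovered reads, cover counting error only and say nothing of the spread between pigs.

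The 4 genes split by direction. The enzymes that build and desaturate the chain, FASN and SCD, were lower in the H30 library, and ME1 and LPIN1 were higher. Few of the 13191 entries compared were 2-fold apart on the log2 scale, 0.584% lower (77 entries) and 0.629% higher (83 entries) in H30. These counts depend on the pseudocount, with 193 lower and 290 higher at 0.1, and 20 lower and 7 higher at 5. At 1.5-fold the shares were 2.37% lower and 3.44% higher. Of the 6990 entries compared that have a symbol, as the 4 genes do, 10 were 2-fold lower and 10 higher. SCD and FASN passed 2-fold on the low side, while LPIN1 and ME1 stayed under 1.5-fold on this scale. Since the genes were picked for these differences, the shares are given as a frame and not as evidence.

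SCD (ENSSSCG00000010554), which converts stearic to oleic acid, had 10.7 RPKM in H30 (95% counting interval 9.78 to 11.6, from at least 537 reads) and 34.5 RPKM in CON (32.9 to 36.2, from at least 1795 reads). The H30 level was 69.1% below that of CON, a log2 ratio of -1.61. Only 21 of the 13191 entries had a lower log2 ratio. Among the 2513 entries with a mean level within 2-fold of that of SCD, 1 had a lower one, and 95% of them lay between -0.42 and 0.44.

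FASN (ENSSSCG00000029944), the multidomain enzyme that makes palmitate, stood at 6.998 RPKM in H30 (6.49 to 7.54, from at least 701 reads) and at 16.0 RPKM in CON (15.2 to 16.8, from at least 1653 reads). This was 56.2% lower in H30, with a log2 ratio of -1.09. Of 3848 entries of like level, 10 had a lower log2 ratio. With a pseudocount of 5 the log2 ratio of FASN was -0.81, short of 2-fold.

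ME1 (ENSSSCG00000004454), the cytosolic malic enzyme that turns malate into pyruvate and yields NADPH, lay on the other side. It stood at 9.32 RPKM in H30 (8.73 to 9.93, from at least 935 reads) and at 7.35 RPKM in CON (6.84 to 7.90, from at least 762 reads). The log2 ratio was 0.30, and 499 of 4543 entries of like level had a higher one. The ME1 difference was thus larger than counting error and within the range in which 95% of entries of its level lay, -0.47 to 0.55.

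LPIN1 (ENSSSCG00000008624), the phosphatidate phosphatase lipin 1, which in mice also acts in the nucleus as a coactivator of fat oxidation genes, had the largest positive difference of the 4. It stood at 18.0 RPKM in H30 (17.3 to 18.7, from at least 2353 reads) and at 11.9 RPKM in CON (11.3 to 12.5, from at least 1602 reads), 51.7% higher in H30 with a log2 ratio of 0.56. Of 3279 entries of like level 51 had a higher log2 ratio.

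**Figure D1:**
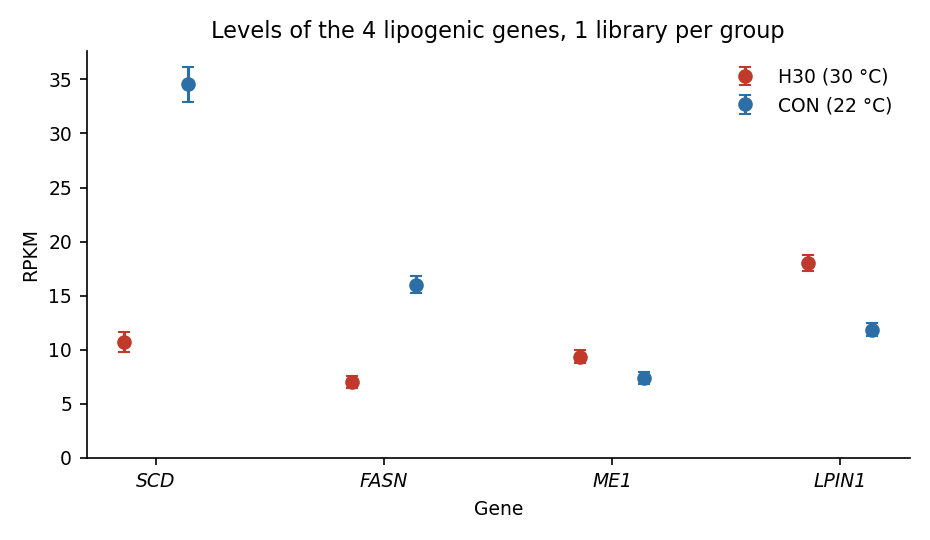
RPKM (vertical axis) of the 4 genes (horizontal axis) in the H30 library (left point of each pair) and the CON library (right point), with 95% counting intervals as bars. SCD was at 10.7 RPKM in H30 and 34.5 RPKM in CON, whereas LPIN1 was at 18.0 RPKM in H30 and 11.9 RPKM in CON.

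**Figure D2:**
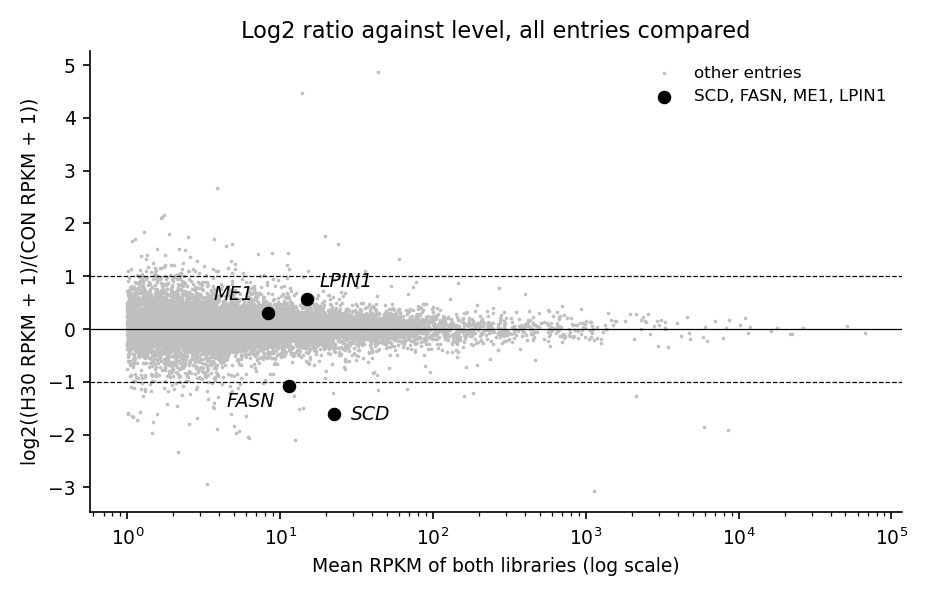
Log2 ratio of H30 over CON (vertical axis) against the mean RPKM of both libraries on a log scale (horizontal axis), with each of the other entries compared as a grey point and the 4 genes in black. Dashed lines mark 2-fold; SCD at -1.61 and FASN at -1.09 lie under the lower line, and ME1 at 0.30 and LPIN1 at 0.56 lie between 0 and the upper line.

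The order of the 4 levels therefore differed between the libraries. In H30 it ran from LPIN1 through SCD and ME1 to FASN, and in CON from SCD through FASN and LPIN1 to ME1. The closest neighbours were SCD and ME1 in H30, with a ratio of SCD to ME1 of 1.14 (1.03 to 1.27), while the same ratio in CON was 4.70 (4.31 to 5.12). These ratios within a library do not depend on how the libraries were scaled to each other. They do depend on the gene lengths used, and the counting intervals do not cover errors in those.

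SCD exceeded FASN in both libraries, by a ratio of 1.52 in H30 (1.36 to 1.71) and 2.16 in CON (2.02 to 2.31). The 2 intervals do not overlap, so the desaturase was further below its CON level than the synthase was. LPIN1 stood at 2.57 times FASN in H30 (2.36 to 2.80) and at 0.742 times FASN in CON (0.692 to 0.795). ME1 likewise stood at 1.33 times FASN in H30 (1.21 to 1.47) and at 0.460 times FASN in CON (0.422 to 0.502). LPIN1 over ME1 moved least, at 1.93 in H30 (1.79 to 2.08) and 1.61 in CON (1.48 to 1.76).

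**Figure D3:**
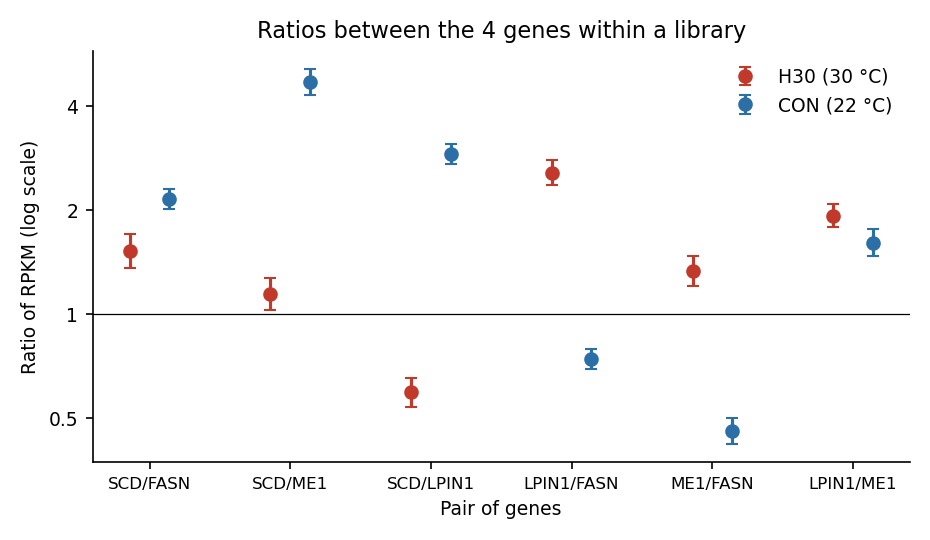
Ratio of RPKM between pairs of the 4 genes within a library (vertical log axis), for H30 (left point of each pair) and CON (right point), with 95% counting intervals as bars. LPIN1/FASN and ME1/FASN lie above 1 in H30 and below 1 in CON, and SCD/LPIN1 lies below 1 in H30 (0.593) and above 1 in CON (2.91).

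The measured genes of the surrounding pathway showed no shift of the size seen in SCD and FASN. Across 11 lists of lipid genes, 137 distinct genes were measured at a mean RPKM of at least 1, of 212 listed. Of those listed, 58 had no match and are not analysed here, among them ACACB, THRSP, AGPAT2 and DGAT2. Of the 137, 3 were at least 1.5-fold lower in H30, namely SCD, FASN and G0S2, and 0 were at least 1.5-fold higher. These are 2.19% of the 137, and SCD and FASN were picked for being low. Of all 13191 entries compared 2.37% were at least 1.5-fold lower, but only 6990 of those entries have a symbol, as every list gene does. At 2-fold, 77 of all entries compared and 10 of those with a symbol were lower. Shares over entries with a symbol alone were not computed at 1.5-fold or below 0. In all, 75 of the 137 (54.7%) had a log2 ratio below 0, against 41.2% of all entries compared, where 58.8% were above 0. The counts of single lists that follow are to be read beside these shares of all entries. LPIN1 had the highest log2 ratio of the 137, and 8 genes, LPIN1 included, lay above ME1.

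Among genes of the synthesis core, 8 of 11 were below 0, FASN included, with a median of -0.11. This list also holds mitochondrial genes outside the route from citrate to palmitate described above. They are MCAT, OXSM and MECR, with log2 ratios of -0.31, -0.12 and -0.03, and ACSS3 and ACSS1, at 0.03 and 0.17. Of all entries compared 41.2% were below 0. The counting interval of the ratio lay below 1 for 3 of the 11 and above 1 for 1. Over all entries compared it lay below 1 for 10.6% and above 1 for 20.6%. ACLY, the citrate lyase that supplies acetyl-CoA, was at 3.12 RPKM in H30 and 4.45 RPKM in CON, a log2 ratio of -0.40. ACACA, the carboxylase that makes malonyl-CoA, was low in both, at 1.28 RPKM in H30 and 1.60 RPKM in CON, and its RPKM ratio of 0.799 had a counting interval that holds 1 (0.569 to 1.12). FASN accordingly stood at 5.48 times ACACA in H30 (4.25 to 7.19) and 10.0 times ACACA in CON (8.04 to 12.6). At the other end were MID1IP1, a protein that binds and activates acetyl-CoA carboxylase (41.1 RPKM in H30, 35.5 RPKM in CON), and the mitochondrial acetyl-CoA synthetase ACSS1 (4.97 RPKM in H30, 4.30 RPKM in CON). Without FASN, 7 of 10 core genes were below 0, 2 had a counting interval below 1, and none was 1.5-fold apart on the same log2 scale.

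Of 16 measured genes of NADPH and citrate supply 10 were below 0, against 41.2% of all entries compared, with a median of -0.01. Several lay so close to 0 that the count depended on scaling. It was 14 with trimmed mean rescaling and 7 when rescaled without the 10 highest entries. ME1 was the highest of the 16. Its mitochondrial relative ME2 came next, at 3.28 RPKM in H30 and 2.75 RPKM in CON. The lowest were PC, pyruvate carboxylase (20.3 RPKM in H30, 26.1 RPKM in CON, log2 ratio -0.35), and MTHFD1, a folate enzyme that can yield NADPH (13.1 RPKM in H30, 16.7 RPKM in CON, -0.33).

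SCD was the only one of 9 measured genes of elongation and desaturation at least 1.5-fold apart, and 5 of the 9 were below 0. The next lowest, FADS3 of the fatty acid desaturase family, was at 1.63 RPKM in H30 and 2.31 RPKM in CON. HACD3, a dehydratase of chain elongation (4.39 RPKM in H30, 3.27 RPKM in CON, log2 ratio 0.34), and CYB5R3, the reductase of the cytochrome b5 chain that feeds electrons to desaturases (41.0 RPKM in H30, 35.2 RPKM in CON, 0.21), were the highest. SCD5, the second stearoyl-CoA desaturase, had little RNA, at 0.713 RPKM in H30 and 0.427 RPKM in CON. Its RPKM ratio was 1.67 (0.999 to 2.83), resting on no fewer than 42 reads in H30 and 26 reads in CON. The elongases ELOVL2 and ELOVL4 were at or under 0.162 RPKM in both libraries, and ELOVL3 was listed at 0 in both. ELOVL1, ELOVL5, ELOVL6 and ELOVL7 had no match and are not analysed here, so the level of elongases as a family is not known.

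In glycerolipid synthesis, 7 of 14 measured genes lay on each side of 0. The lipins were the 2 highest. LPIN3 stood at 2.87 RPKM in H30 (at least 187 reads) and 1.74 RPKM in CON (at least 117 reads), an RPKM ratio of 1.65 (1.303 to 2.10), whose interval overlaps that of LPIN1 (1.52, 1.42 to 1.62). LPIN1 was at 6.27 times LPIN3 in H30 (5.40 to 7.32) and 6.83 times in CON (5.66 to 8.31), and LPIN2 is not analysed here. The lowest were GPAT3, which adds the first acyl chain to glycerol 3-phosphate (2.04 RPKM in H30, 3.53 RPKM in CON, log2 ratio -0.58), and the acyltransferase LCLAT1 (3.00 RPKM in H30, 4.08 RPKM in CON, -0.35). GPAM, the mitochondrial enzyme of that first step, was at 2.02 RPKM in H30 and 1.90 RPKM in CON. DGAT1, which makes triglyceride from diacylglycerol, was at 4.37 RPKM in H30 and 4.74 RPKM in CON.

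**Figure D4:**
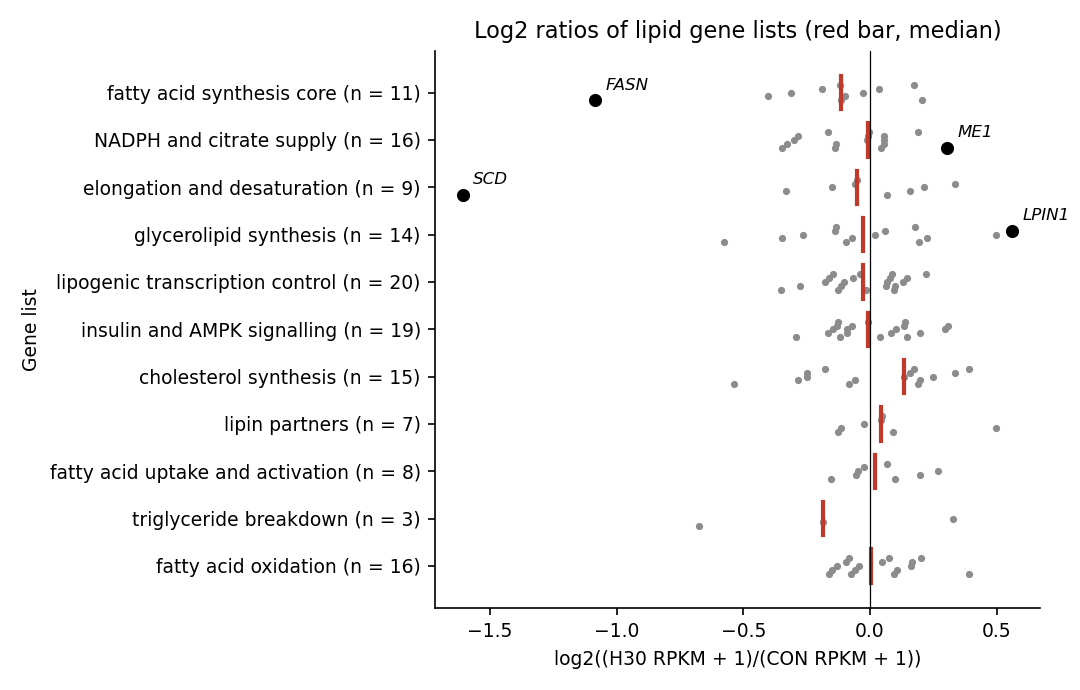
Log2 ratio of H30 over CON (horizontal axis) of the measured genes of 11 lipid gene lists (rows), with SCD, FASN, ME1 and LPIN1 in black, other genes in grey and the list median as a red bar. SCD (-1.61) and FASN (-1.09) lie far to the left of the other genes of their lists, while the list medians stay between -0.19 and 0.14.

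Genes that control fat synthesis differed little between the libraries. The main activators, SREBF1 and SREBF2, were not matched and are not analysed here. Of 20 measured regulators 11 were below 0, with a median of -0.03, and none was 1.5-fold apart on the log2 scale with 1 added to each RPKM. MLXIPL, the carbohydrate response factor ChREBP, was lowest, at 0.846 RPKM in H30 and 1.36 RPKM in CON (log2 ratio -0.35, RPKM ratio 0.623, 0.389 to 0.985). NFYB, a subunit of the CCAAT-binding factor NF-Y, was next, at 3.35 RPKM in H30 and 4.27 RPKM in CON. INSIG1, which holds sterol regulatory element binding proteins in the endoplasmic reticulum and is itself one of their targets, was at 5.15 RPKM in H30 and 5.79 RPKM in CON, with a counting interval of the ratio that holds 1 (0.766 to 1.03). NR1H3, the liver X receptor alpha, was at 14.4 RPKM in H30 and 13.0 RPKM in CON. The mediator subunit MED15 (9.80 RPKM in H30, 8.26 RPKM in CON) and MLX, the partner of MLXIPL (33.3 RPKM in H30, 30.0 RPKM in CON), were highest.

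Cholesterol synthesis, the other branch under sterol regulatory element binding proteins, was mixed, with 8 of 15 measured genes above 0 and a median of 0.14. LSS, lanosterol synthase, was at 2.21 RPKM in H30 and 3.66 RPKM in CON (log2 ratio -0.54), the lowest of these. FDFT1, squalene synthase, was at 76.2 RPKM in H30 and 60.1 RPKM in CON (0.34). Of 19 measured genes of insulin and AMPK signalling 10 were below 0, with a median of -0.01. They ran from the insulin-dependent glucose transporter SLC2A4 (4.99 RPKM in H30, 6.34 RPKM in CON) and the kinase AKT2 (77.5 RPKM in H30, 87.2 RPKM in CON) to the kinase subunit PIK3CA (7.23 RPKM in H30, 5.69 RPKM in CON) and the insulin receptor INSR (4.37 RPKM in H30, 3.33 RPKM in CON).

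Of 7 measured partners and relatives of lipin 1, 3 were below 0, and 5 were after centring on the median or trimmed mean rescaling. LPIN3 apart, they lay close to 0. The nuclear receptor PPARA, with which lipin 1 acts in mouse liver, was at 3.86 RPKM in H30 and 3.56 RPKM in CON. PPARD, another receptor of that family, was at 5.76 RPKM in H30 and 6.38 RPKM in CON, and NFATC4, a transcription factor to which lipin 1 binds in mouse fat cells, at 1.85 RPKM in H30 and 2.08 RPKM in CON. PPARGC1A and the lipin phosphatase subunit CNEP1R1 are not analysed here, and its catalytic partner CTDNEP1 was listed at 0 in both libraries.

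The measured genes that take up, release and burn fatty acids did not move as a block beside the 4 genes. CD36, LPL and FABP3 of uptake and CPT1B and ECHS1 of oxidation had no match and are not analysed here. Uptake and activation genes had 4 of 8 below 0 and a median of 0.02, from the acyl-CoA synthetase ACSL3 (17.0 RPKM in H30, 19.0 RPKM in CON) and SLC27A3 (1.50 RPKM in H30, 1.60 RPKM in CON) to the lipoprotein receptor VLDLR (90.7 RPKM in H30, 79.0 RPKM in CON) and SLC27A4 (2.24 RPKM in H30, 1.69 RPKM in CON). Fatty acid oxidation genes had 8 of 16 below 0 and a median of 0.00. CPT1A, which carries acyl groups toward the mitochondrial matrix, was highest, at 11.4 RPKM in H30 and 8.44 RPKM in CON, followed by ETFDH, which passes electrons of fat oxidation to the respiratory chain (54.3 RPKM in H30, 47.1 RPKM in CON). ETFA (83.8 RPKM in H30, 93.7 RPKM in CON) and ECI2 (17.3 RPKM in H30, 19.2 RPKM in CON) were lowest.

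Of 7 listed genes of triglyceride breakdown 3 were measured, and the lipases PNPLA2 and MGLL are not analysed here. Of the 3 measured, 2 had a counting interval of the ratio below 1 and 1 above 1. Over all entries compared the interval lay below 1 for 10.6% and above 1 for 20.6%. G0S2, an inhibitor of adipose triglyceride lipase, was at 3.47 RPKM in H30 and 6.15 RPKM in CON (log2 ratio -0.68). ABHD5, the activator of the same lipase, was at 3.62 RPKM in H30 and 2.68 RPKM in CON (0.33). LIPE, hormone-sensitive lipase, was at 5.84 RPKM in H30 and 6.77 RPKM in CON (-0.19).

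Some adipocyte markers were lower in H30 beside SCD and FASN. In bulk muscle, fewer adipocytes and less RNA per adipocyte cannot be told apart. The marker list held 17 symbols, with TUSC5 and TRARG1 as names of the same gene, and 11 were matched and 8 measured. Of the 8, 6 were below 0 with a median of -0.16, and 2 were at least 1.5-fold lower. Among all entries compared 41.2% were below 0 and 2.37% at least 1.5-fold lower. The defining markers ADIPOQ, LEP and FABP4 are not analysed here, and RETN and ADRB3 were listed at 0 in both libraries. TRARG1, which acts in the traffic of the insulin-dependent glucose transporter, was at 0.415 RPKM in H30 and 2.21 RPKM in CON, from at least 6 and 33 reads. The lipid droplet proteins were lower too, CIDEC at 3.48 RPKM in H30 and 7.56 RPKM in CON (RPKM ratio 0.460, 0.361 to 0.583) and PLIN1 at 6.64 RPKM in H30 and 10.1 RPKM in CON (0.661, 0.450 to 0.962). PLIN4, a droplet protein that muscle fibres also hold, was at 39.6 RPKM in H30 and 33.7 RPKM in CON. CFD, the secreted protease adipsin, was nearly level, at 119 RPKM in H30 and 123 RPKM in CON (0.968, 0.915 to 1.02), and ADIG was at 1.05 RPKM in H30 and 1.02 RPKM in CON. The matched markers summed to 975 RPKM in H30 and 1063 RPKM in CON, of which GPD1, an enzyme also abundant in muscle fibres, made up 799 RPKM in H30 and 879 RPKM in CON. Without GPD1 the sums were 176 RPKM in H30 and 184 RPKM in CON, most of it CFD.

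The ratio of SCD and FASN to an adipocyte marker depended on the marker. These ratios follow from the levels given above and are no separate evidence. Against PLIN4, SCD stood at 0.269 in H30 (0.245 to 0.294) and 1.02 in CON (0.967 to 1.08), and FASN at 0.177 in H30 (0.163 to 0.191) and 0.474 in CON (0.447 to 0.503). Against CFD, SCD stood at 0.0899 in H30 (0.0818 to 0.0988) and 0.282 in CON (0.265 to 0.299), and FASN at 0.0590 in H30 (0.0542 to 0.0642) and 0.130 in CON (0.123 to 0.139). Against LIPE, SCD stood at 1.83 in H30 (1.61 to 2.08) and 5.10 in CON (4.61 to 5.64), and FASN at 1.20 in H30 (1.06 to 1.36) and 2.36 in CON (2.13 to 2.61). Both genes were thus low in H30 relative to these 3 markers, and the same held for GPD1.

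Against the markers that were themselves low in H30 the differences were smaller, as they must be when the divisor is low there too. SCD to PLIN1 was 1.61 in H30 (1.19 to 2.20) and 3.43 in CON (2.73 to 4.39), and FASN to PLIN1 was 1.05 in H30 (0.786 to 1.44) and 1.59 in CON (1.26 to 2.03), with PLIN1 on at least 48 and 75 reads. SCD to CIDEC was 3.06 in H30 (2.48 to 3.82) and 4.57 in CON (3.98 to 5.26), and FASN to CIDEC was 2.01 in H30 (1.63 to 2.50) and 2.11 in CON (1.84 to 2.44). TRARG1, with few reads, was further below its CON level than either gene, and both ratios to it were higher in H30, with intervals that overlap. Ratios to ADIG rested on at least 3 reads in each library and had wide intervals. The part of adipocyte content in the differences of SCD and FASN was not tested.

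**Figure D5:**
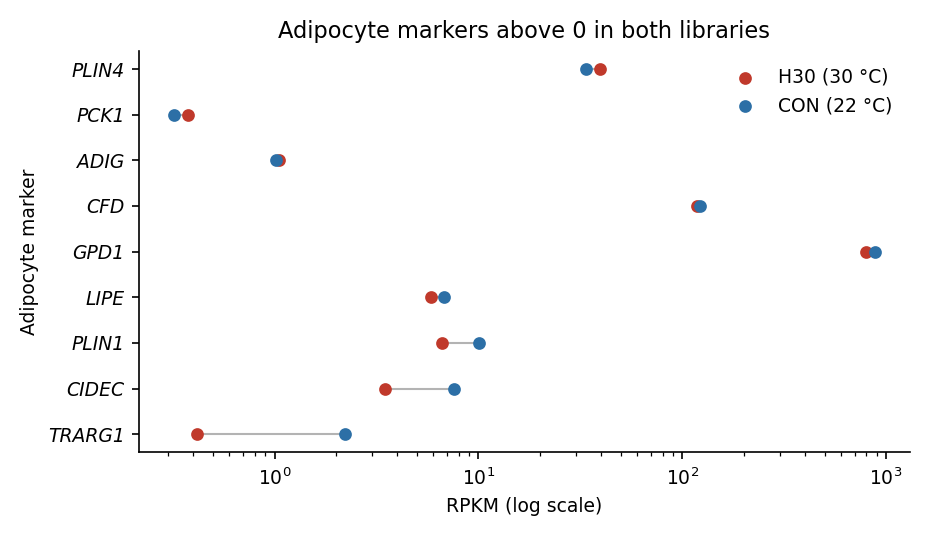
RPKM on a log scale (horizontal axis) of the 9 adipocyte markers above 0 in both libraries (rows, lowest log2 ratio at the bottom), with H30 in red and CON in blue. TRARG1, CIDEC and PLIN1 are lower in H30, and PLIN4 is higher.

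Lists of other cell types with more than 1 measured marker had medians from -0.14 to 0.19, and 41.2% of all entries compared were below 0. Fibroblast markers were below 0 in 5 of 8 with a median of -0.14, endothelial markers in 2 of 5 with a median of 0.19, macrophage markers in 4 of 6 with a median of -0.03, and muscle fibre markers in 4 of 7 with a median of -0.07. One of these markers was at least 1.5-fold apart, the macrophage lysozyme LYZ, at 3.29 RPKM in H30 and 1.09 RPKM in CON (log2 ratio 1.04, RPKM ratio 3.02, 1.89 to 4.96, from at least 73 and 25 reads). Of red blood cell markers only HBB was measured, at 112 RPKM in H30 and 89.0 RPKM in CON.

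By the pattern over these 2 libraries, the genes most like each of the 4 were those with a symbol, a mean level within 2-fold and the nearest log2 ratio. Entries without a symbol were not candidates. SCD and FASN were both picked for being low, so their nearness to each other follows from that choice and is no separate result. The nearest to SCD among 1603 candidates was FASN, still 0.52 away on the log2 scale, followed by TEX9 (16.7 RPKM in H30, 27.2 RPKM in CON) and SERINC2 (11.4 RPKM in H30, 17.9 RPKM in CON). For FASN they were TEX9, FAM43A (6.99 RPKM in H30, 11.4 RPKM in CON) and SERINC2, from 0.42 to 0.47 away. Those nearest to ME1 and LPIN1 were much closer. NANS (11.4 RPKM in H30, 9.04 RPKM in CON), EMP3 (7.63 RPKM in H30, 5.99 RPKM in CON) and JMJD4 (5.80 RPKM in H30, 4.51 RPKM in CON) lay at most 0.00056 from ME1. For LPIN1 the nearest were cardiac actin ACTC1 (25.4 RPKM in H30, 16.8 RPKM in CON), CXorf38 (11.1 RPKM in H30, 7.15 RPKM in CON) and the protease CTSS (13.9 RPKM in H30, 8.91 RPKM in CON), all at most 0.025 away.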

How the data were processed

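Per the labels' protocols, poly(A) RNA was selected from 3 µg of total RNA, reverse transcribed from random primers and amplified in 10 PCR cycles, with fragments of about 200 bp. The kit is not described as marking strand, so overlapping and antisense genes cannot be told apart. The authors deposited 1 RPKM value per gene and library. Bowtie, TopHat 1.4.0, Cufflinks 1.3.0 and Sscrofa10.2 are listed per the submitters' processing notes, which here give neither their roles nor their order. The counter, the gene lengths and the treatment of multiply mapped reads are not given in the sources used here.

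Symbols matched 11374 of 27987 entries. Reads were recovered as the smallest gene length at which both values were whole within 2e-05 reads plus 2e-09 of their number, after library totals had been fitted that made lengths whole. This held for 100% of 19550 entries above 0 in both libraries. A common factor would make the true reads a multiple, so reads are minima and intervals are not too narrow for counting error. Reads were amplified without molecular identifiers, so they do not count independent molecules. Ratios and 95% intervals (Clopper-Pearson for ratios, exact Poisson for levels) were computed with scipy 1.17.1, after the steps had been tested on simulated data.

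The 4 genes and the gene lists were chosen with earlier results of these data known. Named genes were the 4, members of each list at least 1.5-fold apart, its 2 highest and 2 lowest, the SCD, lipin and elongase families and a fixed set of regulators and enzymes. Listed genes under a mean RPKM of 1 were matched but not counted. Some genes that this rule names are not reported here. No coordinates or sequences are given. The ratios to adipocyte markers were chosen after seeing the data.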

Additional observations from a re-analysis of the deposited data

How the results depend on the processing

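No paired analysis was possible because there was 1 library in each arm, so no replicate could be left out either. All 28 alternative log2 ratios of SCD, FASN, ME1 and LPIN1 kept their sign. Those that left the counting interval were the ones with a pseudocount of 5, at -1.33 for SCD, -0.81 for FASN and 0.45 for LPIN1. Past 2-fold, 83 entries were higher in H30 and 77 lower. These counts were 290 and 193 when 0.1 was added to each RPKM, and 7 and 20 when 5 was added. They were 17 and 26 at a mean RPKM of at least 5, and 10 and 10 among the 6990 entries with a symbol. Of 77 list counts below 0, 68 stayed within 1.5 times. Within that bound the count for NADPH and citrate supply, 10 in the main setting, still ranged widely. It was 7 when rescaled without the 10 highest entries and 14 with trimmed mean rescaling. The lipin partners had 5 below 0 instead of 3 when centred on the median or rescaled by the trimmed mean. At a mean RPKM of at least 5, where fewer genes are compared, 5 core synthesis, 3 elongation, 4 glycerolipid, 6 control, 3 cholesterol, 1 lipin partner and 1 breakdown gene lay below 0. Rescaling moved all log2 ratios by -0.06 to 0.04. Depth limits genes of low level most: a single read on 1 kb was worth 0.0437 RPKM in H30 and 0.0424 RPKM in CON.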

Other observations

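Protein-coding genes close to the 4 on either side in the RefSeq annotation of Sscrofa11.1 were looked up by name. That is a later build than the one named for the files. PKD2L1 and WNT8B, directly beside SCD, were at or under 0.0427 RPKM in both libraries, too low to compare. Of the genes just beyond them, BLOC1S2 was at 7.47 RPKM in H30 and 7.97 RPKM in CON. SEC31B was at 7.87 RPKM in H30 and 6.53 RPKM in CON, so neither of these 2 was low in H30 as SCD was. SLC16A3, the lactate exporter MCT4, which lies near FASN, was at 27.8 RPKM in H30 and 41.4 RPKM in CON (log2 ratio -0.56, from at least 1406 and 2160 reads). CCDC57, which lies between SLC16A3 and FASN, was at 0.444 RPKM in H30 and 0.655 RPKM in CON, from at least 21 and 32 reads. PGM3, near ME1, was at 7.54 RPKM in H30 and 7.06 RPKM in CON. In that annotation a noncoding RNA gene overlaps LPIN1, and no gene overlaps SCD, FASN or ME1.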
